A study of Mus musculus with 5 samples.

Results

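C1q-high macrophages were defined here in MC38 tumors as droplet barcodes with at least 20 UMIs of C1qa, C1qb and C1qc together per 10000 gene UMIs and at least 1 UMI of Csf1r, among barcodes with at least 200 detected genes and under 10% mitochondrial UMIs. A UMI is a tagged RNA molecule counted once. By this rule 12086 of 57094 passing MC38 barcodes were C1q-high macrophages, with 6166 in reaction 1 and 5920 in reaction 2. The 2 MC38 reactions held 65356 barcodes in all and the whole series, with its 3 reactions from tumor-draining lymph nodes (TDLNs), held 191492. MC38 is a mouse colon carcinoma line, which was implanted under the skin of male WT C57BL/6J mice. Dual checkpoint inhibition (CPI) joined an antibody to PD-1 with one to CTLA4. Mice were dosed with CPI or isotype control antibody 3 times, at days 3, 6 and 9, and then received vehicle or 20 mg/kg of ABT-317, a JAK1-selective inhibitor, on day 12. Tumors were taken on day 15. The sources differ on whether these days count from implantation or from enrolment into treatment, which for MC38 followed once tumors had grown. Each reaction mixed live CD45+ and CD45- sorted cells in equal parts. The 4 groups were therefore isotype, CPI, CPI + ABT-317 and isotype + ABT-317, the 2 without ABT-317 having had vehicle. All groups were wild type and tumor-bearing. Neither the labels nor the methods say whether the reactions drew on different mice, and the hashtag of a group may pool animals, so p-values below measure the spread between reactions, which may be technical. The share of macrophages among all barcodes was set in part by the CD45 mixing and is not their share of a tumor.

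C1q is the recognition molecule of the classical complement pathway and is assembled from the products of C1qa, C1qb and C1qc. Tissue and tumor macrophages make most of the C1q in the body, and macrophages with high C1q expression in tumors are commonly described with apolipoprotein E, the lipid-sensing receptor TREM2 and MHC class II. Csf1r encodes the receptor for CSF1 and IL-34, on which most macrophages depend. The C1q genes lie side by side on the minus strand of chromosome 4 in GENCODE vM21 (GRCm38), C1qb (ENSMUSG00000036905) at chr4:136880129-136886187, C1qc (ENSMUSG00000036896) at chr4:136889804-136893065 and C1qa (ENSMUSG00000036887) at chr4:136895917-136898803.

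Treatments were told apart by hashtags, antibodies to common surface proteins that carry an oligonucleotide of 15 bases and were put on each group before pooling. The designed sequences are shown because the treatment of every macrophage rests on them, and a different set was used in each reaction.
Isotype, reaction 1, TSCam310: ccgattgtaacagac
Isotype, reaction 2, TSCam301: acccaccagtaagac
CPI, reaction 1, TSCam302: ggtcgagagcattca
CPI, reaction 2, TSCam306: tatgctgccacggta
CPI + ABT-317, reaction 1, TSCam303: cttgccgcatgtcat
CPI + ABT-317, reaction 2, TSCam307: gagtctgccagtatc
Isotype + ABT-317, reaction 1, TSCam309: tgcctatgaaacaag
Isotype + ABT-317, reaction 2, TSCam308: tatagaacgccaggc

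The members were thus selected on their counts of C1qa, C1qb, C1qc and Csf1r, and the values of these genes are descriptions. The macrophages made up 18.3% of passing barcodes in reaction 1 (95% exact binomial interval 17.9 to 18.7) and 25.4% in reaction 2 (24.8 to 25.9), a mean of 21.8% ± 5.03 (SD, n = 2). The intervals cover counting error only and do not overlap. The macrophages held 9.88% and 13.2% of gene UMIs in reactions 1 and 2, and 64.6% and 75.6% of all C1q UMIs. Their median depth was 4323 and 5259 UMIs, against 10922 and 16052 in the other barcodes, and their median mitochondrial share was 1.86% and 1.46%. A further 3212 and 2798 barcodes reached the C1q threshold with 0 UMIs of Csf1r. These had a median of 2392 and 3154 UMIs, so that a Csf1r molecule could be missed at this depth, and they were counted with the other barcodes. Among the macrophages themselves, 41.2% and 36.3% had exactly 1 Csf1r UMI. The same rule found 0, 1 and 0 barcodes in the 3 TDLN reactions, of 62571, 56509 and 7050 passing barcodes.

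The C1q level varied widely among the macrophages, with a median of 92.3 per 10000 UMIs in reaction 1 and 126 in reaction 2. Barcodes just inside the threshold, with 20 to 25 per 10000, numbered 367 and 364 and held a median of 10834 and 10492 UMIs. Barcodes with Csf1r just outside it, with 15 to 20 per 10000, numbered 541 and 437 and held 11974 and 9691 UMIs. Apoe was at 1801 and 1457 CPM (counts per 1000000 gene UMIs of the class) just inside and at 1345 and 1277 CPM just outside. In contrast, the 2792 and 3661 macrophages with at least 100 per 10000 held a median of 4182 and 4834 UMIs and Apoe at 11808 and 12455 CPM. The barcodes near the threshold were thus deeper and closer to one another than to the upper range.

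**Figure D1:**
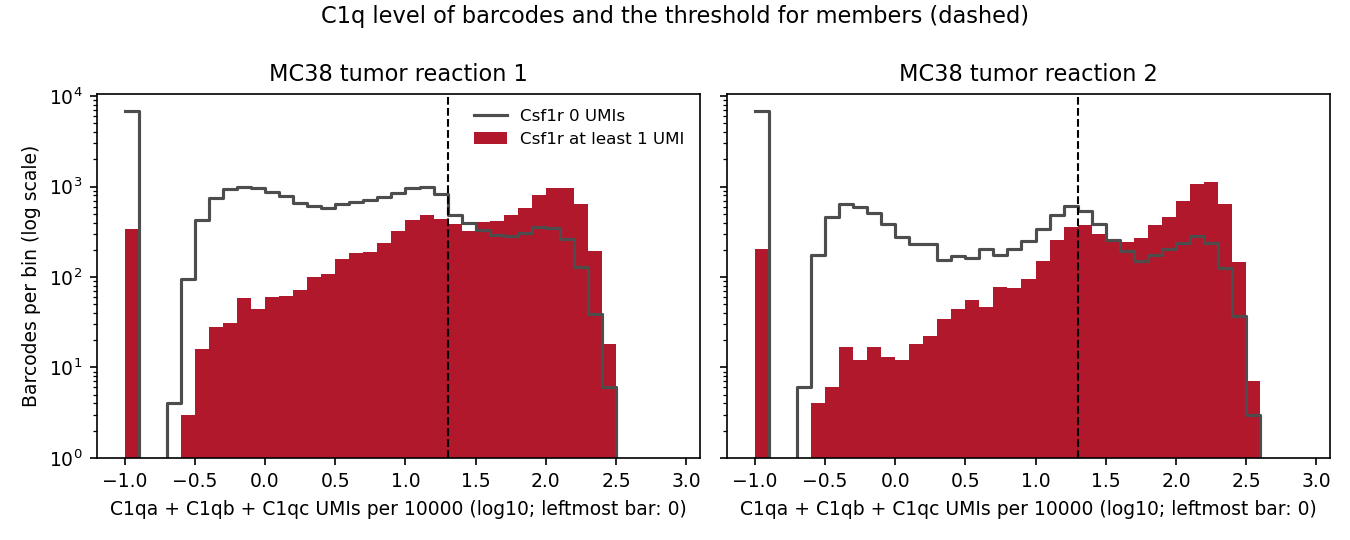
Number of barcodes (log scale) by C1qa, C1qb and C1qc UMIs per 10000 on a log10 axis in each MC38 reaction, with barcodes that hold Csf1r as red bars, those without as a grey line, and the threshold of 20 per 10000 dashed. Barcodes with Csf1r peak well above the threshold in both reactions and have a second, smaller rise beside it.

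Many macrophage barcodes carried several hashtags, and many carried at least 1 UMI of genes typical of other lineages. Exactly 1 hashtag was present in 55.5% and 61.3% of the macrophages, and at least 2 in 43.8% and 36.4%. In the other barcodes at least 2 were present in 44.0% and 27.8%. Whether a second hashtag came from a second cell was not tested. The macrophages with several hashtags held a median of 7001 and 9206 UMIs, and those with 1 hashtag 3404 and 4296. Only 38.6% and 50.4% of the macrophages in reactions 1 and 2 held no UMI of the other-lineage genes. Stricter limits were met by fewer. Collagen transcripts reached 20 per 10000 UMIs in 10.0% and 11.5% of macrophages. At least 3 UMIs of the CD3 genes were found in 2.14% and 2.80%. No doublet caller was run on these matrices, and comparisons of treatment used only macrophages with exactly 1 hashtag. The cell barcodes shared by the 2 reactions numbered 1416, of which 46 belonged to macrophages in both.

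Of the 7 marker genes 4 were part of the rule, and of the other 3 Apoe and Adgre1 separated the macrophages from other barcodes and Mertk hardly did. Csf1r, part of the rule, was at 333 and 308 CPM in macrophages and 11.9 and 6.92 CPM in other barcodes. Apoe, the apolipoprotein that carries lipid out of cells, was at 6498 and 7159 CPM against 407 and 376 CPM. Adgre1, which encodes F4/80, was at 119 and 108 CPM against 9.11 and 6.34 CPM. Mertk, a receptor for the uptake of dying cells, was at 49.2 and 41.7 CPM in macrophages, 29.9 and 32.2 CPM in other barcodes and 39.7 and 47.1 CPM in barcodes marked by collagen and lacking Csf1r. Summed markers of several other lineages were low but higher in macrophages than in other barcodes. Those of T cells were at 23.9 and 26.9 CPM against 9.71 and 10.2 CPM, those of neutrophils at 40.0 and 37.7 against 13.7 and 7.36 CPM, and those of B cells at 7.46 and 9.12 against 0.855 and 0.836 CPM. Keratin markers were below 1 CPM in both classes. The number of genes higher without macrophages that carried UMIs of other lineages is given below. Col3a1, a fibroblast collagen, was at 1139 and 976 CPM in macrophages and 1518 and 1468 CPM in other barcodes. These contrasts describe barcodes that C1q and Csf1r counts selected and carry no test.

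In both reactions 8435 genes were at 10 CPM or more in at least 1 of the 2 classes. Of these, 1178 (14.0%) were at least 2-fold higher in the macrophages in both reactions and 176 (2.09%) at least 2-fold lower. Leaving out macrophages with any UMI of other lineages gave 1606 genes at least 2-fold higher. Thinning to 2000 UMIs gave 1121. The number of genes tested in these 2 settings was not kept. Among genes at 100 CPM or more in the macrophages, the 20 highest ratios, after Csf1r, the C1q genes and Apoe, included Fcrls, Lyz2 (lysozyme 2), Fcgr1 (the high-affinity Fcγ receptor), Trem2, the chemokine Ccl12, Slamf9, Pld4, Fcer1g, Cd14, Tyrobp and Aif1. In reaction 1 the ratios of the 15 genes after Apoe ran from 15.5-fold for Fcrls to 13.4-fold for Ucp2, a mitochondrial carrier. Macrophage transcripts were also found at a low level in classes that should lack them. In barcodes marked by CD3 genes and lacking Csf1r, 37.8% and 29.4% held a C1qa UMI. After all barcodes were thinned to 2000 UMIs, which left out 723 and 453 macrophages, a C1qa UMI was found in 96.3% and 96.2% of macrophages, 22.5% and 21.8% of other barcodes, 28.3% and 29.4% of CD3-marked barcodes and 24.0% and 26.7% of collagen-marked barcodes. Barcodes with Csf1r below the C1q threshold held one in 34.3% and 35.4%. The other barcodes include those with C1q above the threshold and 0 UMIs of Csf1r, so their share is not background alone. Whether free RNA gave these shares was not tested.

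Genes of macrophage origin and function were raised as groups. In the list of macrophage identity 8 of 10 genes were at least 2-fold higher in both reactions, with a median log2 ratio of 3.70 and 3.99 against −0.10 and −0.13 over all genes. Spi1 and Irf8, transcription factors of the myeloid lineage, were at 177 and 209.9 and at 101 and 114 CPM in macrophages and at 13.2 and 12.8 and 7.78 and 7.69 CPM in other barcodes. Maf, a transcription factor of mature macrophages, was at 80.0 and 63.2 CPM against 12.5 and 8.96 CPM. The ligands of CSF1R went the other way, with Csf1 at 51.8 and 49.0 CPM in macrophages and 102 and 97.2 CPM elsewhere, and Il34 at 27.9 and 26.5 and 53.9 and 53.2 CPM. In the complement list 8 of 12 genes were at least 2-fold higher in both reactions, with the receptors C3ar1 and C5ar1 at 139.6 and 143 and 153 and 186 CPM against 11.6 and 9.51 and 11.9 and 11.6 CPM. C3 itself was at 60.5 and 53.2 CPM in macrophages and 181 and 182 CPM in collagen-marked barcodes.

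Antigen presentation divided between its classes. All 7 tested MHC class II genes were at least 2-fold higher (median log2 ratio 3.56 and 3.75), with H2-Ab1, a chain of I-A, at 1377 and 1543 CPM against 114 and 113 CPM, and the invariant chain Cd74 at 4312 and 5393 CPM against 354 and 382 CPM. None of 10 MHC class I genes reached 2-fold, and B2m was at 2797 and 2696 CPM against 2395 and 2435 CPM. Of 6 genes of Fcγ receptors, which bind IgG, 5 were at least 2-fold higher in both reactions, and Fcgr4 was at 93.2 and 92.8 CPM against 6.67 and 5.53 CPM.

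Both inflammatory and suppressive genes were higher in the summed macrophages. Levels at least 2-fold higher in both reactions were found for 12 of 14 chemokines, 8 of 8 inflammatory cytokine genes and 9 of 9 suppressive genes. Cxcl2, a neutrophil attractant, was at 3531 and 3643 CPM against 323 and 278 CPM, Il1b at 1012 and 1128 CPM against 97.4 and 79.5 CPM, and Tnf at 437 and 566 CPM against 37.9 and 37.0 CPM. Arg1, the arginase of suppressive myeloid cells, was at 179 and 177 CPM against 15.0 and 12.8 CPM, Mrc1 (CD206) at 71.1 and 59.4 CPM against 5.65 and 3.47 CPM, and Cd274 (PD-L1) at 154 and 137 CPM against 23.9 and 19.6 CPM. Ccl2 was below 2-fold, at 1008 and 1278 CPM in macrophages and 798 and 1005 CPM in other barcodes. Of 21 genes induced by IFN-γ, 11 were at least 2-fold higher, among them Cxcl9, a CXCR3 ligand, at 173 and 159 CPM against 22.5 and 18.8 CPM. Gbp2, an interferon-induced GTPase, was at 111 and 105 CPM against 109 and 113 CPM.

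Resident-type and lipid-associated genes were present in part. Folr2, a folate receptor of resident macrophages, was at 12.4 and 13.1 CPM against 0.878 and 0.793 CPM, whereas the resident markers Timd4, Cd163 and Lyve1 gave 3 and 6, 1 and 7, and 12 and 5 UMIs in all macrophages. In the lipid list 8 of 14 genes were at least 2-fold higher, with Trem2 at 332 and 381 CPM against 22.2 and 21.8 CPM. The fatty acid binding gene Fabp5 was at 401 and 429 CPM in macrophages and 637 and 719.8 CPM in other barcodes, and Gpnmb at 25.1 and 24.1 and 32.0 and 31.8 CPM. No gene of the 12 in the cell cycle list reached 2-fold in either direction. Among genes at 100 CPM or more in other barcodes, the 9 lowest when ranked on both reactions, with ratios between 0.358 and 0.426 in reaction 1, were Cox6a2, Shisal2b, Cst6, Klra4, Gm16001, Mrps6, Tm4sf1, Psph and Asns.

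**Figure D2:**
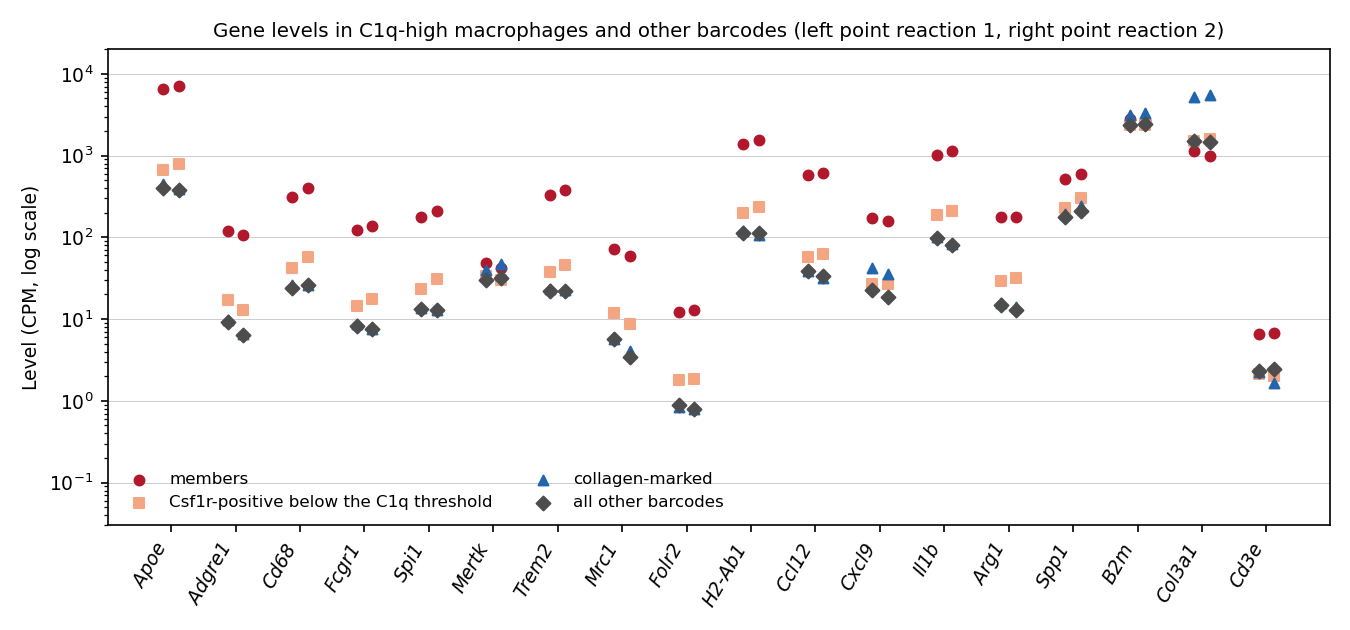
Levels of 18 genes (CPM, log scale) in C1q-high macrophages (red circles), barcodes with Csf1r below the C1q threshold (light squares), collagen-marked barcodes (blue triangles) and all other barcodes (grey diamonds), with reaction 1 on the left and reaction 2 on the right of each pair. The macrophages lie more than 10-fold above other barcodes for Apoe, Adgre1, Cd68 and Trem2, and with them for B2m, Mertk and Col3a1.

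Against the 4897 barcodes that had Csf1r but fell below the C1q threshold, 1010 of 8428 genes (12.0%) were at least 2-fold higher in both reactions and 150 (1.78%) at least 2-fold lower. The C1q genes were about 10-fold higher and led the order by construction. Ccl12 was at 577 and 619 CPM in the macrophages and 57.5 and 62.1 CPM below the threshold, Apoe at 6498 and 7159 and 674 and 791 CPM, and Trem2 at 332 and 381 and 37.6 and 46.3 CPM. Arg1 was also higher in the macrophages, at 179 and 177 CPM against 29.0 and 31.6 CPM. The barcodes below the threshold held a median of 12529 and 14541 UMIs and 1 Csf1r UMI. Their summed fibroblast markers were at 3302 and 3704 CPM, against 3263 and 3223 CPM in all other barcodes, which include them. Their macrophage identity genes summed to 2813 and 3072 CPM, against 2420 and 2552 CPM there and 7423 and 8272 CPM in the macrophages. The ratios are thus not a comparison with C1q-low myeloid cells alone.

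At 2000 UMIs per barcode, an Arg1 UMI was found in 21.0% and 20.8% of macrophages, Spp1 (osteopontin) in 37.2% and 38.0%, Cxcl9 in 18.2% and 15.9%, Mrc1 in 15.1% and 13.5% and Folr2 in 2.54% and 2.69%. In other barcodes the shares were 3.85% and 3.84% for Arg1, 21.1% and 23.7% for Spp1, 5.15% and 4.53% for Cxcl9, 1.84% and 1.48% for Mrc1 and 0.336% and 0.355% for Folr2. Spp1 and Arg1 were found together in 10.7% and 10.9% of macrophages, above the 7.81% and 7.90% given by the product of their shares. Cxcl9 and Spp1 were found together in 6.21% and 5.12%, below a product of 6.78% and 6.03%. Mrc1 and Folr2 shared 0.790% and 0.841% against a product of 0.383% and 0.362%. Of the 9 pairs compared, 8 departed from their product in the same direction in both reactions, and Trem2 with Gpnmb did not, at 1.82% and 1.57% against 1.81% and 1.74%. Barcodes with several cells can bear on these shares, and their part in the result was not tested.

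Macrophages with 1 hashtag were divided into equal tertiles by C1q level, with 1140 in each for reaction 1 and 1210 for reaction 2. Median C1q was 54.1, 107 and 159 per 10000 in reaction 1 and 71.0, 142 and 201 in reaction 2. Col3a1 and Fabp5, which were higher in other barcodes, went down with C1q. Col3a1 was at 895 and 732 CPM in the lowest tertile of reactions 1 and 2, 169 and 71.9 in the middle and 115 and 49.7 in the highest. Fabp5 went from 456 and 630.1 CPM to 189 and 138 CPM. Apoe, Fcer1g, Trem2, H2-Ab1, Irf7, Cxcl9 and Ccl12 rose from the lowest to the middle tertile, where Col3a1 was already low. The step from the middle to the highest is therefore given apart. Apoe was at 8739.8 and 10109 CPM in the middle tertile and 13307 and 15704 CPM in the highest. Fcer1g, Trem2 and H2-Ab1 followed, with Trem2 at 503 and 602 and then 626 and 736 CPM, and H2-Ab1 at 1956 and 2549.7 and then 2477 and 2927 CPM. Cxcl9 was at 123 and 96.3 CPM in the lowest tertile, 221 and 219 in the middle and 379 and 355 in the highest, and Irf7, a transcription factor of interferon responses, at 51.1 and 67.5, 72.8 and 90.1 and 106 and 143 CPM. Ccl12 was level between the upper tertiles, at 1079 and 1176 and 1115 and 1169.9 CPM. Il1b and Cxcl2 were highest in the middle tertile in both reactions, Il1b at 1717 and 1975 CPM there and 1405 and 1636 CPM in the highest. The rule used C1q itself, and these levels are given with no test.

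**Figure D3:**
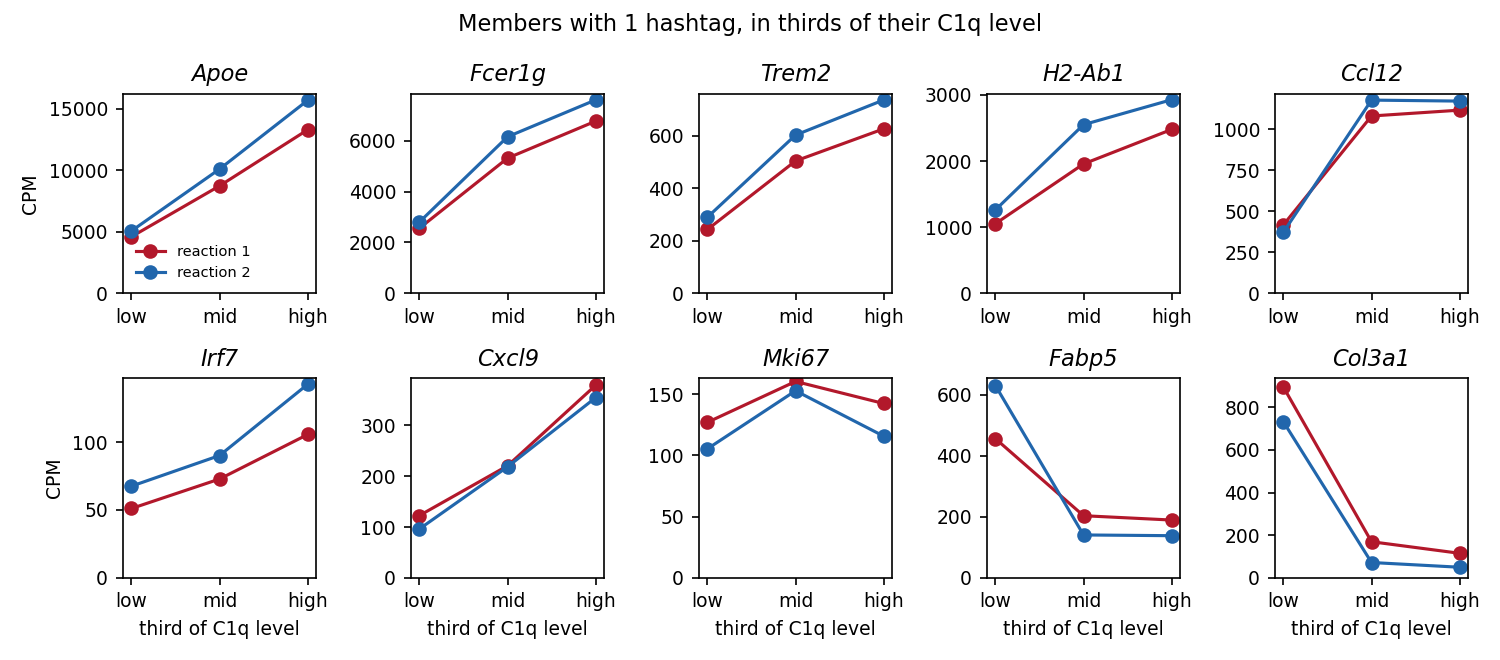
Levels of 10 genes (CPM, linear axes from 0) in macrophages with 1 hashtag, in equal tertiles of C1q level, with reaction 1 in red and reaction 2 in blue. Apoe, Fcer1g, Trem2, H2-Ab1, Irf7 and Cxcl9 rise across the tertiles in both reactions, Ccl12 stops rising at the middle, and Fabp5 and Col3a1 go down.

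Few surface antibodies, which the rule did not use, separated the macrophages from other barcodes. Of 113 antibodies, 3 were at least 2-fold higher on macrophages in both reactions and 1 was at least 2-fold lower. These are shares of antibody UMIs with background left in, and when the isotype controls were subtracted 9 were at least 2-fold higher. CD11b, the integrin of myeloid cells, was at 193 and 204 per 10000 antibody UMIs on macrophages and 72.1 and 72.8 on other barcodes. The MHC class II antibody I-A/I-E was at 107 and 110.0 against 46.7 and 48.3, and CD48 at 66.2 and 68.5 against 32.5 and 32.6. The transferrin receptor CD71 was lower, at 36.5 and 35.6 against 80.8 and 84.6. CD115, the protein of Csf1r, did not separate them, at 17.9 and 21.5 against 19.1 and 19.5. These values lay within the range of the isotype control antibodies. Those ran from 9.71 to 38.8 per 10000 on macrophages of single treatment groups and reactions. F4/80 protein, at 55.0 and 54.9 on macrophages and 41.5 and 41.0 elsewhere, separated the classes far less than its transcript Adgre1. The 9 isotype control antibodies had ratios between 0.928 and 1.11. With 2 reactions no exact test of a ratio can reach 0.05.

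Treatment groups differed in how many macrophages they held. In isotype tumors 2906 of 10239 barcodes with 1 hashtag were C1q-high macrophages in reaction 1 (28.4%, exact interval 27.5 to 29.3) and 3077 of 8415 in reaction 2 (36.6%, 35.5 to 37.6). CPI tumors held 94 of 1978 (4.75%, 3.86 to 5.78) and 79 of 1515 (5.21%, 4.15 to 6.46). CPI + ABT-317 tumors held 195 of 1905 (10.2%, 8.91 to 11.7) and 298 of 2348 (12.7%, 11.4 to 14.1), and isotype + ABT-317 tumors 225 of 2704 (8.32%, 7.31 to 9.43) and 176 of 2025 (8.69%, 7.50 to 10.0). The order isotype, CPI + ABT-317, isotype + ABT-317, CPI was the same in both reactions, although the exact intervals of the ABT-317 groups overlapped in reaction 1. The shares moved when deeper barcodes were left out. Among barcodes with fewer than 2500 genes, a limit that also removed 1600 and 1842 macrophages, the mean shares over both reactions were 53.7% in isotype, 42.9% in CPI + ABT-317, 41.3% in isotype + ABT-317 and 5.31% in CPI. The means kept their order with this limit. They did not when treatment was taken from the leading hashtag, which adds barcodes with several hashtags and drops others. The CPI group then had 1050 and 625 barcodes instead of 1978 and 1515. Of its 94 and 79 macrophages 79 and 56 were kept. The shares were then 36.9% and 40.3% in isotype, 12.2% and 15.4% in CPI, 11.3% and 14.7% in CPI + ABT-317 and 8.48% and 11.01% in isotype + ABT-317, so that CPI was no longer lowest and lay slightly above CPI + ABT-317 in both reactions. Other cells differed between groups as well. CD3-marked barcodes were 7.43% and 13.5% of the CPI group and at most 0.128% of any other group. These shares count barcodes with 1 hashtag. Of 373 and 385 CD3-marked barcodes in all, 147 and 204 had the CPI hashtag alone. By flow cytometry the paper found no difference in CD8+ T cells per mg of tumor between CPI and CPI + ABT-317. Whether hashtag calls bear on this was not tested. Collagen-marked barcodes were 49.0% and 48.6% of the CPI group and between 14.4% and 19.9% of the others. Depth and hashtag calls differed between groups too. Median depth was 2054 and 2551 UMIs over all barcodes of the CPI group and 5262 and 6991 in isotype. It was 16584 and 19952 in CPI + ABT-317 and 16313 and 23956 in isotype + ABT-317. The lowest hashtag count called present was 38 and 27 UMIs in CPI and 59 and 38 in isotype. It was 203 and 99 in CPI + ABT-317 and 90 and 44 in isotype + ABT-317. What part this had in the shares was not tested. Fewer macrophages and more of other cells cannot be told apart in such shares.

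Macrophages of CPI tumors were also shallower and lower in C1q. Their median depth was 2045 and 2681 UMIs, against 3439 and 4258 in isotype, 3972 and 5084 in CPI + ABT-317 and 3206 and 4394 in isotype + ABT-317. Median C1q was 60.5 and 71.9 per 10000 in CPI and between 107 and 145 in the other groups. C1qa, which the rule used, was at 3219 and 4027 CPM in isotype, 2305 and 2271 in CPI, 3429 and 3903 in CPI + ABT-317 and 3424 and 4074 in isotype + ABT-317. Csf1r was at 487 and 440.1, 749 and 703, 463 and 413 and 519 and 497 CPM in the same order. Markers of other lineages moved too. The summed markers of T cells were at 5.05 and 3.27 CPM in isotype macrophages and 89.7 and 39.5 CPM in CPI macrophages, and those of neutrophils at 31.7 and 25.4 against 62.8 and 105 CPM. Fibroblast markers were at 3687 CPM in CPI macrophages of reaction 1 but 176 CPM in reaction 2, against 800.3 and 644 CPM in isotype. B cell, keratin and mast cell markers were at or near 0 in CPI macrophages. The part of these cells in the results below was not tested, beyond the fit without macrophages that carried UMIs of other lineages.

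Gene counts of macrophages with 1 hashtag were summed per group and reaction, giving 8 sums that held 222964 and 227653 gene UMIs in CPI, between 855279 and 1674732 in the ABT-317 groups, and 12675561 and 16837836 in isotype. Of 8452 genes tested with edgeR's quasi-likelihood test, 1268 (15.0%) passed an adjusted p of 0.05 between CPI and isotype, 839 (9.93%) between CPI + ABT-317 and CPI, and 5 (0.0592%) between isotype + ABT-317 and isotype. The CPI sums enter both of the first comparisons, with opposite sign, and the isotype sums enter both the first and the last. A fit with the reaction as a block called 1581, 1053 and 12 genes. Each value below is a log2 difference ± SE, with p adjusted over all 8452 genes.

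Between CPI and isotype, 765 genes (9.05%) were higher and 503 (5.95%) lower. With no filter on low counts the balance turned, with 637 higher and 754 lower. CPI macrophages gained lysozyme, CC chemokines of the CCL6 and CCL9 pair, and lipid and lysosomal genes, and were lower in cell cycle genes and in some chemokine and surface genes. Lyz1 (ENSMUSG00000069515) had the smallest p, at 2.05 and 1.72 CPM in isotype and 484 and 681 CPM in CPI (log2 8.27 ± 0.26, adjusted p = 2.91e-19). It rested on 108 and 155 UMIs in CPI and 26 and 29 in isotype. Its neighbor Lyz2, 5476 bases away on chromosome 10, was at 3681 and 4283 and then 14738 and 19433 CPM (log2 2.11 ± 0.19, adjusted p = 3.83e-09), and the near-identical coding parts of these paralogs could lead reads to be split between them. The groups did not overlap for either gene.

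Lyz1 UMIs were found in 11 of 94 (11.7%) and 16 of 79 (20.3%) CPI macrophages. Ccl6 was at 3713 and 3134 CPM in those and at 889 and 827 CPM in the rest of the CPI macrophages, and Fabp5 at 5341 and 4106 against 904 and 1687 CPM. Ccl6 in CPI macrophages without Lyz1 thus still exceeded the 39.8 and 41.5 CPM of isotype. In collagen-marked barcodes of CPI tumors Lyz1 was at 2.04 and 0.880 CPM and Ccl6 at 6.71 and 4.11 CPM.

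Chemokine genes moved in both directions. Of 14 tested, 6 rose and 6 fell. Ccl6, a CCR1 ligand, was at 1332 and 1296 CPM in CPI (log2 5.02 ± 0.24, adjusted p = 7.26e-15), and Ccl9, its neighbor on chromosome 11, went from 53.7 and 52.6 to 269 and 307 CPM (log2 2.44 ± 0.22, adjusted p = 2.20e-09). Ccl8 rose from 64.3 and 57.9 to 1063 and 1449.6 CPM (log2 4.37 ± 0.21, adjusted p = 7.26e-15). Collagen-marked CPI barcodes held Ccl8 at 522 and 577 CPM. Cxcl2, the neutrophil attractant, rose from 4382 and 4727 to 10073 and 10217 CPM (log2 1.16 ± 0.19, adjusted p = 5.47e-05). The CCR2 ligands fell, Ccl12 from 805 and 842 to 144 and 123 CPM (log2 -2.63 ± 0.25, adjusted p = 1.27e-08), Ccl2 from 1018 and 1195 to 516 and 579.8 CPM (log2 -1.01 ± 0.19, adjusted p = 0.000358) and Ccl7 from 732 and 801 to 462 and 461 CPM (log2 -0.73 ± 0.19, adjusted p = 0.00781). Every CPI value of Ccl2, Ccl7 and Ccl12 lay below every isotype value, though Ccl7 did not pass without isotype reaction 2 (adjusted p = 0.0632), CPI reaction 1 (0.0770) or CPI reaction 2 (0.0531).

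Most lipid and resident-type genes rose. In the lipid list 11 of 15 genes rose and none fell, with a median log2 difference of 1.60 against −0.04 over all genes. Abca1, the cholesterol exporter, was at 183 and 151 CPM in isotype and 910.5 and 637 CPM in CPI (log2 2.21 ± 0.19, adjusted p = 2.01e-09). Fabp5 rose from 265 and 305 to 1601 and 2179 CPM (log2 2.73 ± 0.21, adjusted p = 1.30e-10), and Gpnmb from 13.7 and 13.5 to 103 and 215 CPM (log2 3.56 ± 0.32, adjusted p = 3.50e-09). Apoe differed less, at 8962 and 10084 and 13684 and 15071 CPM (log2 0.60 ± 0.17, adjusted p = 0.0140), and did not pass without isotype reaction 1 (adjusted p = 0.179) or CPI reaction 2 (0.170). In the resident-type list 5 of 6 genes rose, at a median of 2.17. Folr2 was at 13.9 and 14.1 and 58.3 and 57.1 CPM (log2 2.04 ± 0.36, adjusted p = 0.000174) and Selenop, which encodes a selenium carrier, at 129.9 and 132 and 745 and 567 CPM (log2 2.32 ± 0.19, adjusted p = 3.93e-10). Folr2 rested on 13 and 13 UMIs in CPI, and Selenop was at 365 and 384 CPM in collagen-marked CPI barcodes. Gas6, a ligand of MERTK, gave 16.9 and 15.1 and 67.3 and 43.9 CPM (log2 1.80 ± 0.40, adjusted p = 0.00190), which did not pass without CPI reaction 1 (adjusted p = 0.136). Cbr2 gave 12.5 and 10.1 and 58.3 and 52.7 CPM (log2 2.31 ± 0.40, adjusted p = 0.000143). In the list for the uptake of dying cells 3 of 11 genes rose (Mrc1, Cd36 and Gas6), Axl fell and 7 did not pass (median 0.53). Mrc1, the mannose receptor, was at 86.7 and 77.8 CPM and then 484 and 303 CPM (log2 2.26 ± 0.21, adjusted p = 3.83e-09).

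Lysosomal, complement and monocyte genes rose in part. In all, 9 of 18 lysosomal genes rose, with the protease Ctsd at 502 and 451 and then 1857 and 2596 CPM (log2 2.24 ± 0.19, adjusted p = 6.08e-10). In the complement and coagulation list 8 of 13 rose (median 1.50), and C3, the central complement protein, went from 23.0 and 20.3 to 309 and 303 CPM (log2 3.83 ± 0.24, adjusted p = 3.43e-12). F13a1, the coagulation factor subunit of monocyte-derived cells, went from 36.9 and 35.4 to 318 and 184 CPM (log2 2.80 ± 0.25, adjusted p = 2.45e-09). In the monocyte list 5 of 8 rose and 1 fell, Thbs1 (thrombospondin 1) being at 123 and 122 and 794 and 966 CPM (log2 2.85 ± 0.19, adjusted p = 8.08e-12) and Ly6c2 at 2.21 and 4.99 and 49.3 and 123 CPM (log2 4.53 ± 0.68, adjusted p = 0.000713). Ly6c2 was also found in CD3-marked barcodes, at 441 and 586 CPM in CPI tumors, and T cell markers were higher in the same CPI sums. Their part in the result was not tested, since the fit without macrophages carrying UMIs of other lineages gave no value for Ly6c2. Gdf15, a stress-induced cytokine, was at 25.8 and 22.3 and 569.6 and 470.0 CPM (log2 4.44 ± 0.23, adjusted p = 2.87e-14), Wfdc17 at 127 and 98.6 and 1489 and 1551 CPM (log2 3.76 ± 0.20, adjusted p = 2.87e-14), and the phospholipase Ddhd1 at 19.0 and 12.9 and 211 and 321 CPM (log2 4.08 ± 0.26, adjusted p = 3.43e-12). Arg1 rose from 177 and 183 to 292 and 575 CPM (log2 1.28 ± 0.23, adjusted p = 0.000236), and did not pass without CPI reaction 2 (adjusted p = 0.150).

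Most MHC class II genes rose, while IFN-γ-induced genes passed at a share near that of all genes. Of 7 MHC class II genes 5 rose (median 1.13), H2-Ab1 from 1677 and 2029 to 4561 and 4990.1 CPM (log2 1.37 ± 0.18, adjusted p = 1.87e-06) and Cd74 from 5161 and 7014 to 11679 and 14719.8 CPM (log2 1.12 ± 0.19, adjusted p = 8.72e-05). Of 23 IFN-γ-induced genes, Cd40, Irf1 and Socs1 rose, Fcgr1 fell and 19 did not pass (median 0.45), and 4 calls among 23 genes are close to the 15.0% called over all genes. Irf1 was at 106 and 99.5 and 215 and 343 CPM (log2 1.45 ± 0.22, adjusted p = 2.45e-05). Socs1, a feedback inhibitor of JAK signaling, was at 20.9 and 27.0 and 40.4 and 105 CPM (log2 1.61 ± 0.38, adjusted p = 0.00368) but did not pass without CPI reaction 2 (adjusted p = 0.544). Cish, another, was at 5.13 and 6.00 and 35.9 and 26.4 CPM (log2 2.47 ± 0.57, adjusted p = 0.00326), on 8 and 6 UMIs, and did not pass without CPI reaction 1 (adjusted p = 0.118). Jak1, which encodes the target of ABT-317, was at 98.6 and 89.9 and 224 and 176 CPM (log2 1.09 ± 0.22, adjusted p = 0.000727) and did not pass without CPI reaction 1 (adjusted p = 0.0636). Cxcl9 was at 216 and 187 and 247 and 219.6 CPM (log2 0.21 ± 0.25, adjusted p = 0.626), and without macrophages that carried UMIs of other lineages its difference was −1.09 (adjusted p = 0.0483).

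Of 15 type I interferon-stimulated genes 4 fell, none rose and 11 did not pass (median −0.66). Isg15, a ubiquitin-like protein, fell from 551 and 631 to 283 and 452 CPM (log2 -0.68 ± 0.22, adjusted p = 0.0370), and did not pass without isotype reaction 2 (adjusted p = 0.154) or CPI reaction 1 (0.427), nor with DESeq2 (adjusted p = 0.0848). Irf7 was at 71.4 and 91.2 and 26.9 and 30.7 CPM (log2 -1.50 ± 0.38, adjusted p = 0.00723), and did not pass without CPI reaction 1 (adjusted p = 0.123) or CPI reaction 2 (0.0739). Ifit2 was at 67.5 and 66.2 and 8.97 and 30.7 CPM (log2 -1.74 ± 0.47, adjusted p = 0.0111), on 2 and 7 UMIs, and did not pass without CPI reaction 1 (adjusted p = 0.263). Oas3 gave 173 and 202 UMIs in isotype and 0 in both CPI sums, at least 1.91-fold lower when 3 counts over both CPI sums are taken as the floor. Ifi27l2a, which is counted here outside that list, fell from 1093 and 1084 to 157 and 184 CPM (log2 -2.67 ± 0.23, adjusted p = 9.22e-10).

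Several surface and enzyme genes were among those that fell, by the smallest p or as listed genes. Cx3cr1, the fractalkine receptor, was at 312 and 247 CPM and then 67.3 and 26.4 CPM (log2 -2.58 ± 0.31, adjusted p = 4.88e-07), Cd72 at 326 and 384 and 76.2 and 52.7 CPM (log2 -2.46 ± 0.28, adjusted p = 1.90e-07), Cd81, a tetraspanin, at 501 and 647 and 126 and 154 CPM (log2 -2.04 ± 0.24, adjusted p = 4.73e-07) and Gatm, an enzyme of creatine synthesis, at 319 and 336 and 67.3 and 30.7 CPM (log2 -2.74 ± 0.29, adjusted p = 5.42e-08). Pmepa1 was at 420.4 and 419.9 and 121 and 101 CPM (log2 -1.92 ± 0.23, adjusted p = 4.41e-07). Havcr2, which encodes TIM-3, was at 74.9 and 69.7 and 22.4 and 26.4 CPM (log2 -1.56 ± 0.40, adjusted p = 0.00656), on 5 and 6 UMIs in CPI, and did not pass without CPI reaction 1 (adjusted p = 0.116) or CPI reaction 2 (0.0669). In all, 10 of 12 cell cycle genes fell (median −1.69), Top2a, a topoisomerase of dividing cells, from 181 and 150.4 to 76.2 and 43.9 CPM (log2 -1.46 ± 0.29, adjusted p = 0.000552) and Mki67 from 141 and 122 to 85.2 and 57.1 CPM (log2 -0.88 ± 0.28, adjusted p = 0.0289). Top2a did not pass without CPI reaction 2 (adjusted p = 0.0522), nor Mki67 without isotype reaction 1 (adjusted p = 0.0687), CPI reaction 1 (0.0740) or CPI reaction 2 (0.286), and DESeq2 did not call Mki67 (adjusted p = 0.0519). The only tested T cell marker, Cd3d, rose, as did the neutrophil markers S100a8 and Csf3r and the cDC2 marker Clec10a, and the 4 fibroblast markers did not pass. Taking treatment from the leading hashtag adds barcodes with several hashtags and drops some with 1. In that setting 341 genes passed, and Ccl12, Ccl2, Ccl7, Cxcl2, H2-Ab1, Cd74, Apoe, Arg1, Isg15, Irf7, Jak1 and Top2a were among those lost. Leaving out macrophages with any UMI of other lineages kept 43 and 51 of the 94 and 79 in CPI. These held 87680 and 142353 gene UMIs. Of 6582 genes then tested 727 passed, and Folr2, Gas6, Apoe, Irf7, Isg15, Ifit2 and Ccl7 were among those lost. Fewer cells and the removal of other lineages cannot be told apart in these losses.

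**Figure D4:**
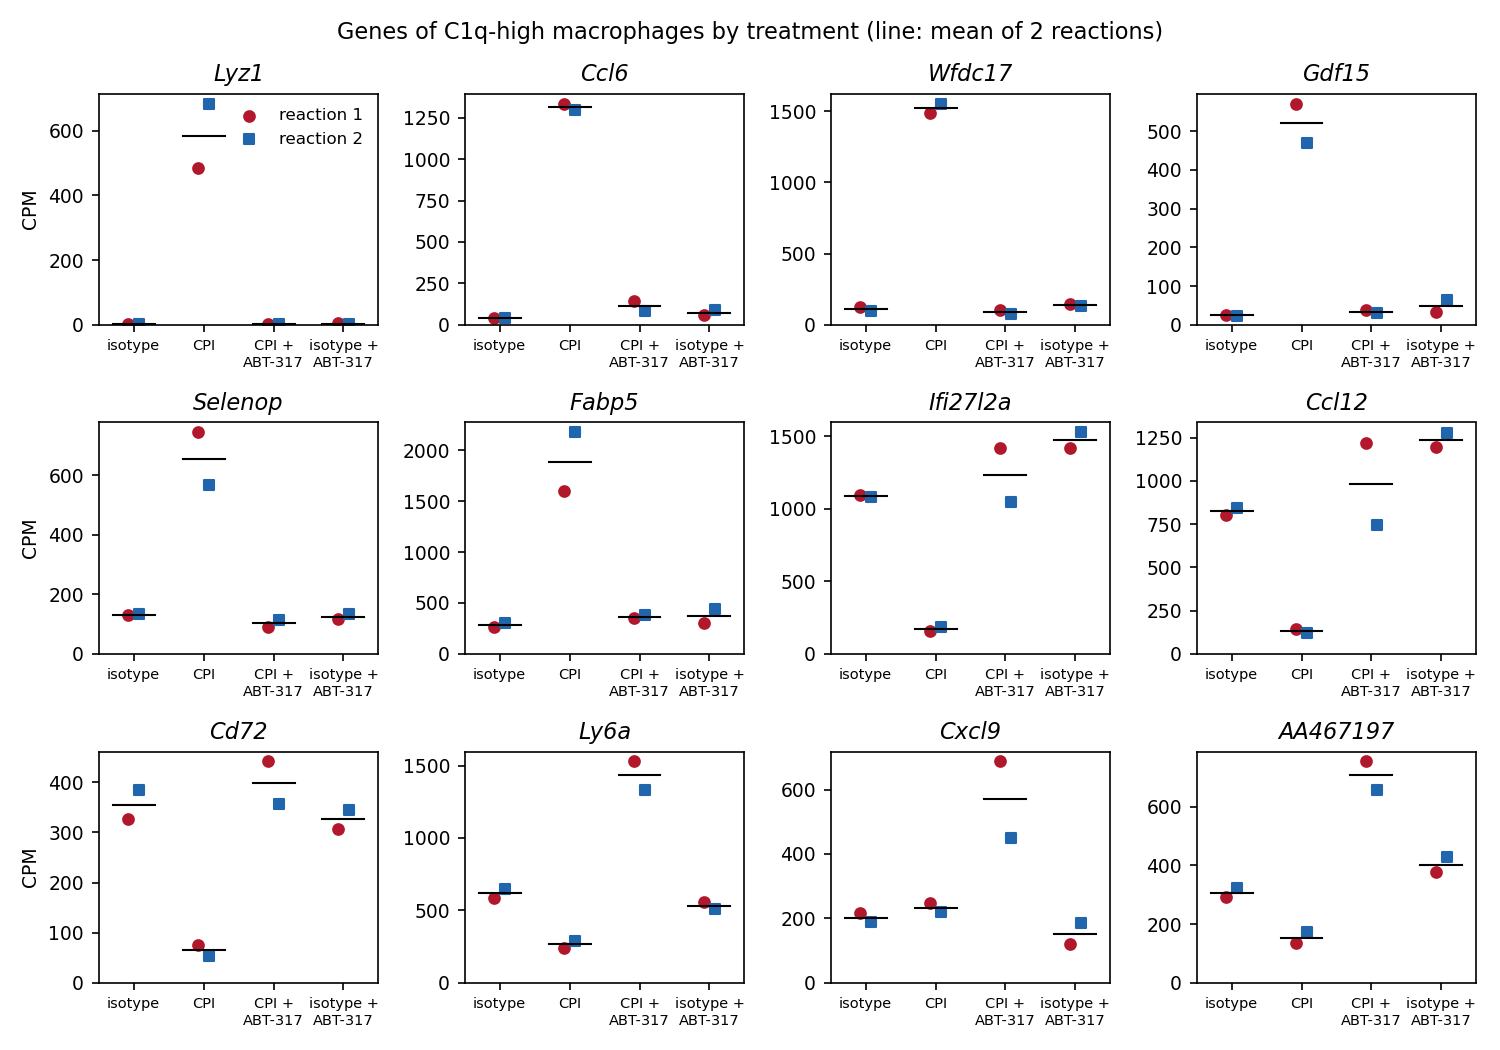
Levels of 12 genes (CPM, linear axes from 0) in the summed macrophages of each group, with reaction 1 as red circles, reaction 2 as blue squares and the mean of both as a line. Lyz1, Ccl6, Wfdc17, Gdf15, Selenop and Fabp5 are high in CPI alone, Ifi27l2a, Ccl12 and Cd72 are low in CPI alone, and Ly6a, Cxcl9 and AA467197 are highest in CPI + ABT-317.

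Between CPI + ABT-317 and CPI, 330 genes (3.90%) were higher and 509 (6.02%) lower. Many genes that CPI macrophages held high were lower with ABT-317, in several cases near their isotype level. Others did not pass here, among them Cd74, H2-DMa, Arg1, Irf1, Socs1, Cd40 and Cish. In the complement and coagulation list 4 of 13 genes fell and none rose (median −0.43). In the lysosomal list 8 of 18 fell and Ctsc rose (median −0.24). Markers of T cells and neutrophils were lower as well. The summed T cell markers were at 7.02 and 3.58 CPM in CPI + ABT-317 macrophages against 89.7 and 39.5 CPM in CPI, and the neutrophil markers at 16.4 and 19.1 against 62.8 and 105 CPM. Cd3d, S100a8, Csf3r and Clec10a fell. Without macrophages that carried UMIs of other lineages 456 genes passed, and Igtp, Nos2, Isg15, Ifit2, Gas6, H2-Ab1, Jak1 and Ifngr1 were the named genes lost. Lyz1 was at 3.51 and 2.39 CPM (log2 -7.73 ± 0.35, adjusted p = 2.50e-15), Ccl6 at 143 and 86.0 CPM (log2 -3.58 ± 0.24, adjusted p = 1.97e-11), Wfdc17 at 101 and 74.6 CPM (log2 -4.17 ± 0.21, adjusted p = 3.89e-14) and Gdf15 at 38.6 and 29.9 CPM (log2 -3.99 ± 0.26, adjusted p = 1.84e-11). None of 15 lipid genes rose and 9 fell (median −1.29), with Fabp5 at 349.6 and 377 CPM (log2 -2.40 ± 0.21, adjusted p = 4.15e-09), Abca1 at 201 and 169 CPM (log2 -2.09 ± 0.20, adjusted p = 2.84e-08) and Apoe at 5431 and 6500.1 CPM (log2 -1.29 ± 0.17, adjusted p = 5.41e-06). In all, 5 of 6 resident-type genes fell (median −2.27), Selenop to 91.2 and 114 CPM (log2 -2.68 ± 0.20, adjusted p = 2.73e-10), Folr2 to 7.02 and 10.2 CPM (log2 -2.70 ± 0.44, adjusted p = 9.96e-05), Gas6 to 23.4 and 10.7 CPM (log2 -1.87 ± 0.45, adjusted p = 0.00625) and Cbr2 to 1.17 and 2.99 CPM (log2 -4.57 ± 0.59, adjusted p = 4.60e-06). Gas6 did not pass without CPI reaction 1 (adjusted p = 0.183) or CPI + ABT-317 reaction 2 (0.137). Mrc1 was at 77.2 and 72.8 CPM (log2 -2.42 ± 0.23, adjusted p = 1.39e-08), Thbs1 at 140.3 and 105 CPM (log2 -2.89 ± 0.20, adjusted p = 6.07e-11), Lyz2 at 5829.7 and 6574 CPM (log2 -1.49 ± 0.19, adjusted p = 3.12e-06), Ctsd at 673 and 624 CPM (log2 -1.81 ± 0.19, adjusted p = 7.87e-08) and C3 at 64.3 and 74.6 CPM (log2 -2.15 ± 0.25, adjusted p = 8.32e-07).

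Ccl8 kept part of its CPI level, at 413 and 358 CPM in CPI + ABT-317 (log2 -1.74 ± 0.20, adjusted p = 5.26e-07) against 64.3 and 57.9 CPM in isotype. Cxcl2 was at 6544 and 5127 CPM (log2 -0.82 ± 0.19, adjusted p = 0.00432), and did not pass without CPI reaction 2 (adjusted p = 0.0607) or CPI + ABT-317 reaction 2 (0.137). The CCR2 ligands were higher than in CPI, Ccl12 at 1217 and 748 CPM (log2 2.86 ± 0.26, adjusted p = 5.64e-09), Ccl2 at 1525 and 1361 CPM (log2 1.37 ± 0.19, adjusted p = 1.29e-05) and Ccl7 at 1266 and 1037 CPM (log2 1.30 ± 0.19, adjusted p = 2.82e-05). Cx3cr1 was at 255 and 204 CPM (log2 2.27 ± 0.32, adjusted p = 1.33e-05), Cd72 at 442 and 357 CPM (log2 2.61 ± 0.28, adjusted p = 1.64e-07), Gatm at 320.4 and 296 CPM (log2 2.63 ± 0.29, adjusted p = 3.40e-07), Havcr2 at 102 and 69.3 CPM (log2 1.75 ± 0.40, adjusted p = 0.00495) and Top2a at 195 and 156 CPM (log2 1.52 ± 0.29, adjusted p = 0.000890). In all, 9 of 12 cell cycle genes rose and none fell (median 1.68). Havcr2 did not pass without CPI reaction 1 (adjusted p = 0.101) or CPI reaction 2 (0.0546), nor Top2a without CPI reaction 2 (adjusted p = 0.0598).

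Some interferon-induced genes were higher in CPI + ABT-317 than in CPI. Of 23 IFN-γ-induced genes 8 rose, none fell and 15 did not pass (median 0.70 against 0.05 over all genes), among them Fcgr4, Fcgr1, Gbp2, Cxcl9, Gbp4, Igtp and Nos2. Cxcl9 was at 689.8 and 449 CPM against 247 and 219.6 CPM in CPI (log2 1.26 ± 0.25, adjusted p = 0.00146), above both isotype values of 216 and 187 CPM. Fcgr4 was at 248 and 215 against 94.2 and 65.9 CPM (log2 1.51 ± 0.26, adjusted p = 0.000199) and Fcgr1 at 221 and 232 against 80.7 and 101 CPM (log2 1.29 ± 0.25, adjusted p = 0.000903), the latter not passing without CPI reaction 1 (adjusted p = 0.0527). Nos2, the inducible nitric oxide synthase, was at 113 and 92.6 against 8.97 and 43.9 CPM (log2 1.91 ± 0.42, adjusted p = 0.00328) and did not pass without CPI reaction 1 (adjusted p = 0.158). The guanylate-binding and related GTPase genes were nearer the threshold, Gbp2 at 210.5 and 166 against 126 and 83.5 CPM (log2 0.82 ± 0.27, adjusted p = 0.0481), Gbp4 at 62.0 and 49.6 against 22.4 and 17.6 CPM (log2 1.43 ± 0.45, adjusted p = 0.0432) and Igtp at 44.4 and 52.5 against 22.4 and 8.79 CPM (log2 1.64 ± 0.49, adjusted p = 0.0308). Gbp2 did not pass without CPI reaction 1 (adjusted p = 0.0951), CPI reaction 2 (0.341) or CPI + ABT-317 reaction 1 (0.153), Gbp4 did not without CPI reaction 1 (adjusted p = 0.175), CPI reaction 2 (0.226) or CPI + ABT-317 reaction 1 (0.0977), and Igtp did not without CPI reaction 1 (adjusted p = 0.0729), CPI reaction 2 (0.284) or CPI + ABT-317 reaction 2 (0.112). DESeq2 called none of these 3 (adjusted p = 0.0728 for Gbp2, 0.102 for Gbp4 and 0.0771 for Igtp).

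Of 15 type I interferon-stimulated genes 4 rose (Isg15, Oas3, Irf7 and Ifit2), none fell and 11 did not pass (median 1.18). Irf7 was at 106 and 132 against 26.9 and 30.7 CPM (log2 2.04 ± 0.38, adjusted p = 0.000633) and Isg15 at 560.1 and 782 against 283 and 452 CPM (log2 0.84 ± 0.22, adjusted p = 0.0144), and Isg15 did not pass without CPI reaction 1 (adjusted p = 0.281) or CPI + ABT-317 reaction 2 (0.146). Ifit2 was at 42.1 and 72.3 against 8.97 and 30.7 CPM (log2 1.55 ± 0.50, adjusted p = 0.0460) and did not pass without CPI reaction 1 (adjusted p = 0.431), CPI reaction 2 (0.0546) or CPI + ABT-317 reaction 2 (0.293), nor with the reaction as a block (adjusted p = 0.0720) or with DESeq2 (0.0853). Oas3 gave 45 and 54 UMIs, at least 5.88-fold above CPI on the floor of 3 counts. Ifi27l2a was at 1416 and 1047 CPM (log2 2.83 ± 0.23, adjusted p = 8.51e-10), near isotype, while Ly6a (Sca-1), which many cells induce with interferon, was at 1533 and 1335 CPM against 242 and 289.9 CPM in CPI (log2 2.41 ± 0.20, adjusted p = 2.25e-09) and 588 and 649 CPM in isotype. AA467197 was at 756 and 656 against 135 and 171 CPM (log2 2.18 ± 0.23, adjusted p = 1.20e-07). Ly6a in collagen-marked CPI barcodes was at 2332 and 2730 CPM, above its level in the macrophages of any group.

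Of 10 MHC class I genes, 4 rose and none fell, all of them for peptide supply: Psmb8 was at 628 and 706 against 283 and 343 CPM (log2 1.07 ± 0.22, adjusted p = 0.00142), Psmb9 at 341 and 315 against 161 and 154 CPM (log2 1.03 ± 0.23, adjusted p = 0.00412) and Tap1, the peptide transporter, at 147 and 126 against 89.7 and 48.3 CPM (log2 0.96 ± 0.31, adjusted p = 0.0465), with Psmb10. Psmb8 did not pass without CPI reaction 1 (adjusted p = 0.0600), Psmb9 did not without CPI reaction 1 (adjusted p = 0.0628) or CPI reaction 2 (0.0543), and Tap1 did not without CPI reaction 1 (adjusted p = 0.0699), CPI reaction 2 (0.391) or CPI + ABT-317 reaction 1 (0.101), nor with DESeq2 (adjusted p = 0.0746). Of 7 MHC class II genes 3 fell (median −0.53), H2-Ab1 being at 3411 and 3215 CPM (log2 -0.55 ± 0.17, adjusted p = 0.0426), still above both isotype values. H2-Ab1 did not pass without isotype reaction 1 (adjusted p = 0.0565), CPI reaction 1 (0.0999), CPI reaction 2 (0.283), CPI + ABT-317 reaction 1 (0.0782), CPI + ABT-317 reaction 2 (0.276) or isotype + ABT-317 reaction 1 (0.0540). Jak1 fell to 109.9 and 90.2 CPM (log2 -1.04 ± 0.23, adjusted p = 0.00385) and Ifngr1, a chain of the IFN-γ receptor, was at 81.8 and 89.6 against 139 and 176 CPM (log2 -0.90 ± 0.25, adjusted p = 0.0204). Jak1 did not pass without CPI reaction 1 (adjusted p = 0.130) or CPI + ABT-317 reaction 2 (0.0660), nor Ifngr1 without CPI reaction 1 (adjusted p = 0.0623), CPI reaction 2 (0.303) or CPI + ABT-317 reaction 2 (0.0718). With treatment taken from the leading hashtag, 249 genes passed, and Gbp2, Gbp4, Igtp, Nos2, Fcgr1, Fcgr4, Irf7, Isg15, Ifit2, Psmb8, Psmb9, Tap1, Ccl12 and Top2a were among those lost, whereas Cxcl9, Lyz1, Ccl6, Wfdc17 and Gdf15 passed.

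Promoters of the interferon genes that had an entry, which left out Gbp4, Nos2, Ifi27l2a and Ly6a, were read from RefSeq (GRCm38.p6) as the 250 bases before the annotated start, and searched on both strands for GAAANNGAAA, the core of the interferon-stimulated response element (ISRE), and for TTCNNNGAA, the STAT-binding GAS element. The ISRE core was found in 978 of 32851 promoters (2.98%) and in 251 of 6751 tested genes that had an entry (3.72%). It was found in 25 of 260 genes (9.62%) that rose with CPI + ABT-317 and in 20 of 385 (5.19%) that fell. The GAS core was found in 2306 of all promoters (7.02%), in 15 of the 260 (5.77%) and in 26 of the 385 (6.75%). Among the genes named above, Isg15, Gbp2, Igtp, Fcgr4 and Oas3 held an ISRE core and Igtp, Fcgr1, Psmb8 and Ifit2 a GAS core, with the letters of Ifit2 in only 1 of its 2 RefSeq entries, while neither pattern of letters was in the windows of Cxcl9, Irf7, Psmb9, Psmb10 and Tap1. The promoters of 3 genes are shown, 5′ to 3′ on the gene's strand, with the motif letters in capitals, because they hold the ISRE core in different forms: overlapping copies in Isg15, 1 copy on the opposite strand in Gbp2, and a copy beside a GAS core in Igtp.
Isg15, chr4:156200819-156201068, minus strand: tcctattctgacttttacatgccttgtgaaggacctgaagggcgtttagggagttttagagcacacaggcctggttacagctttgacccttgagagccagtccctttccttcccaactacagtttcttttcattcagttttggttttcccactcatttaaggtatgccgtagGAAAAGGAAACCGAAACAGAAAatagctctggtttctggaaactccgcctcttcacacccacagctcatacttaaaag
Gbp2, chr3:142620413-142620662, plus strand: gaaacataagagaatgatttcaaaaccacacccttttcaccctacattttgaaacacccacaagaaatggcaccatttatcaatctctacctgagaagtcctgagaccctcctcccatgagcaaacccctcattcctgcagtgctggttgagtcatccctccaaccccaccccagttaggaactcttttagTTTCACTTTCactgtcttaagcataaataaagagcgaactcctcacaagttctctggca
Igtp, chr11:58199306-58199555, plus strand: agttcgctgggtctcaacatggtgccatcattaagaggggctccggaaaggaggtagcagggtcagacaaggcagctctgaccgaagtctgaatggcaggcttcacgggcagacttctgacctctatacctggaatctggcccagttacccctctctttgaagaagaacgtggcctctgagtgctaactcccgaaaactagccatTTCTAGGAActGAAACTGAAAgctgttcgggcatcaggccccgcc

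Between isotype + ABT-317 and isotype, 5 genes passed, all of them higher, and 299 genes had an unadjusted p under 0.05. Which genes passed was not stable. Other genes, lower ones among them, passed when an isotype sum was left out. With no filter on low counts 11 were higher and 8 lower. The 5 genes themselves kept their direction in these settings. None passed with C1q at 10 per 10000 or with the leading hashtag, where Gm43305 had an adjusted p of 0.0531 and 0.0547, and 208 and 229 genes had an unadjusted p under 0.05. DESeq2 also called 5, of which 4 were higher and 1 lower. The 5 genes were Gm43305 at 17.0 and 20.3 CPM in isotype and 57.9 and 73.7 CPM with ABT-317 (log2 1.78 ± 0.24, adjusted p = 0.000333), Cbr2 at 12.5 and 10.1 and 28.9 and 45.1 CPM (log2 1.69 ± 0.27, adjusted p = 0.00539), Ccl9 at 53.7 and 52.6 and 94.3 and 128 CPM (log2 1.03 ± 0.19, adjusted p = 0.0353), Rsad2, which encodes viperin, at 194 and 170.0 and 380.4 and 304 CPM (log2 0.88 ± 0.17, adjusted p = 0.0415) and Gm42031 at 10.8 and 8.08 and 24.6 and 28.6 CPM (log2 1.47 ± 0.29, adjusted p = 0.0415). Cbr2 did not pass without isotype reaction 2 (adjusted p = 0.0672) or isotype + ABT-317 reaction 2 (0.637), and Ccl9 did not without isotype reaction 1 (adjusted p = 0.247), isotype reaction 2 (0.110), CPI reaction 1 (0.0568), CPI reaction 2 (0.0517) or isotype + ABT-317 reaction 2 (0.948). Rsad2 did not pass without isotype reaction 1 (adjusted p = 0.261), isotype reaction 2 (0.536), CPI reaction 1 (0.0584), CPI reaction 2 (0.0554), isotype + ABT-317 reaction 1 (0.385) or isotype + ABT-317 reaction 2 (0.0547), and Gm42031 did not without isotype reaction 1 (adjusted p = 0.121), isotype reaction 2 (0.611), CPI reaction 1 (0.0584), CPI reaction 2 (0.0554), isotype + ABT-317 reaction 1 (0.120) or isotype + ABT-317 reaction 2 (0.845), nor with DESeq2 (adjusted p = 0.530). The fit with the reaction as a block called 12 genes, Irf7 among them at a log2 difference of 0.70 (adjusted p = 0.0298). In the fit without it Irf7 was at 71.4 and 91.2 and 119 and 151 CPM (log2 0.69 ± 0.20, adjusted p = 0.541), Isg15 at 551 and 631 and 804 and 905 CPM (log2 0.50 ± 0.19, adjusted p = 1.00), and both ABT-317 values lay above both isotype values for each. None of 23 IFN-γ-induced genes passed (median −0.09), Cxcl9 being at 216 and 187 and 120.0 and 185 CPM (log2 -0.43 ± 0.22, adjusted p = 1.00). Of 15 type I interferon-stimulated genes Rsad2 alone passed (median 0.50), and none of the 7 MHC class II genes did (median −0.44).

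The effect of ABT-317 was compared with and without CPI by the interaction of both treatments, which passed for 379 genes (4.48%), 142 higher (1.68%) and 237 lower (2.80%) under CPI. With no filter on low counts the balance turned, with 241 higher and 174 lower. The block fit called 673. In all, 8 of 15 lipid genes and 5 of 6 resident-type genes had a more negative ABT-317 effect under CPI, and none a more positive one. Wfdc17 (log2 -4.43 ± 0.28, adjusted p = 2.67e-11), Gdf15 (log2 -4.97 ± 0.38, adjusted p = 7.14e-10), Ccl6 (log2 -4.40 ± 0.34, adjusted p = 1.06e-09) and Mrc1 (log2 -3.06 ± 0.30, adjusted p = 1.12e-07) were among the smallest p-values. Cbr2 differed most among resident-type genes (log2 -6.25 ± 0.65, adjusted p = 3.04e-07), since it fell with ABT-317 under CPI and rose under isotype antibody. In the other direction Ly6a (log2 2.66 ± 0.27, adjusted p = 1.64e-07), Gatm (log2 3.01 ± 0.35, adjusted p = 1.41e-06), Ifi27l2a (log2 2.42 ± 0.29, adjusted p = 2.14e-06), Cd72 (log2 2.76 ± 0.34, adjusted p = 3.44e-06) and Ccl12 (log2 2.31 ± 0.32, adjusted p = 3.18e-05) had a more positive effect under CPI. Among IFN-γ-induced genes the interaction passed for Cxcl9 (log2 1.69 ± 0.33, adjusted p = 0.00278) and Fcgr4 (log2 1.60 ± 0.32, adjusted p = 0.00237), and among MHC class I genes for Psmb8 (log2 1.33 ± 0.28, adjusted p = 0.00515), Psmb9 (log2 1.10 ± 0.30, adjusted p = 0.0286) and 1 more. Fcgr4 did not pass without CPI reaction 2 (adjusted p = 0.0511), Psmb8 did not without CPI reaction 1 (adjusted p = 0.0631) and Psmb9 did not without isotype reaction 2 (adjusted p = 0.120), CPI reaction 1 (0.130), CPI reaction 2 (0.117) or isotype + ABT-317 reaction 1 (0.143). With C1q at 10 per 10000 the interaction passed for 124 genes and ended for Cxcl9 (adjusted p = 0.0698), Fcgr4 (0.0678), Psmb8 (0.0520) and Psmb9 (0.144). With the leading hashtag it passed for 78 and ended for Ccl12 (adjusted p = 0.842), Ifi27l2a (0.382), Fcgr4 (0.221), Psmb8 (0.417) and Psmb9 (0.563). None of 7 MHC class II genes passed (median −0.08).

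**Figure D5:**
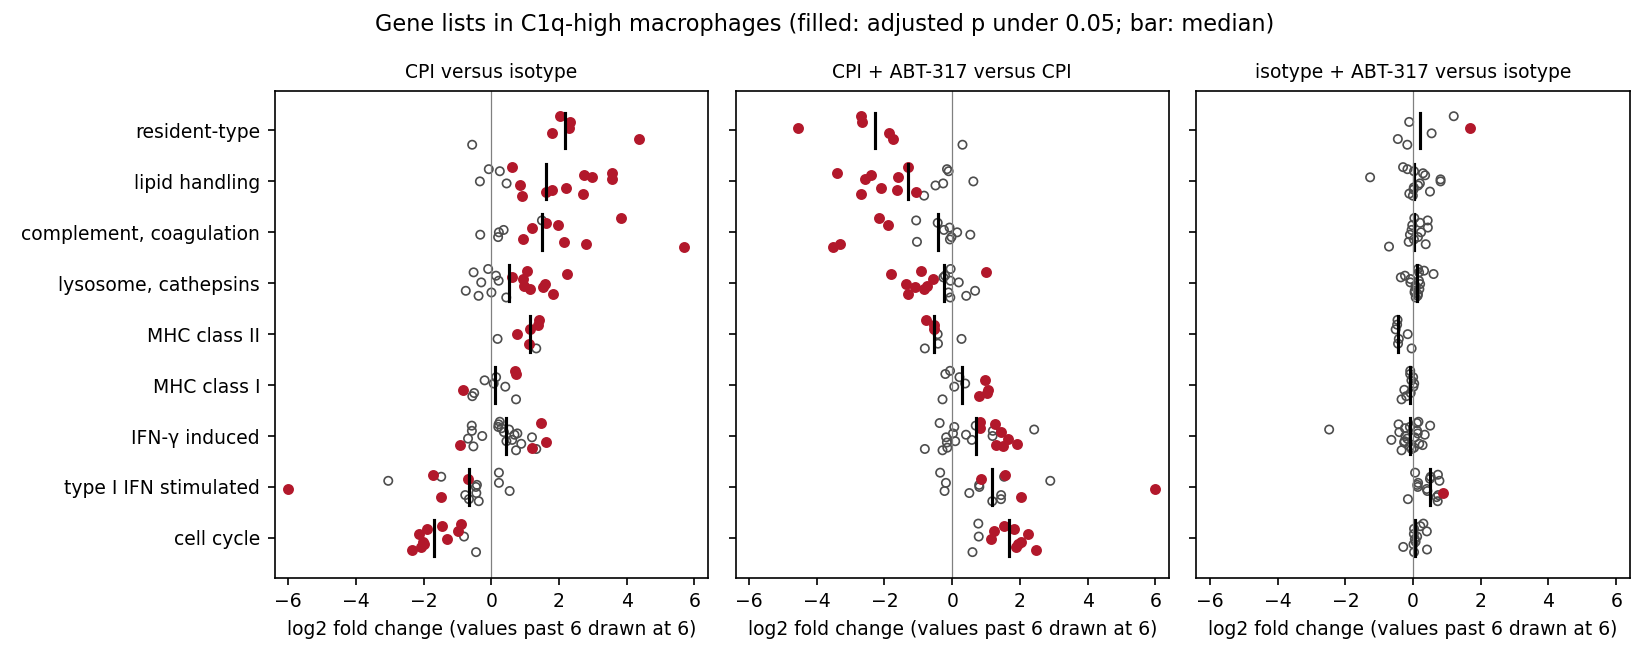
Log2 differences of genes in 9 lists for 3 comparisons in summed C1q-high macrophages, filled where adjusted p was under 0.05, with the list's median as a bar and values past 6 drawn at 6. The medians of resident-type, lipid, complement and lysosomal genes lie to the right for CPI versus isotype. They lie to the left for CPI + ABT-317 versus CPI, though nearer the zero line for complement (−0.43) and lysosomal genes (−0.24). Cell cycle genes lie the opposite way, and few points are filled for isotype + ABT-317 versus isotype.

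Surface MHC class II followed the treatments in part. The I-A/I-E antibody was at 262 and 259 per 10000 antibody UMIs on CPI macrophages, 96.2 and 107 on isotype, 93.9 and 89.3 on CPI + ABT-317 and 78.0 and 87.5 on isotype + ABT-317 macrophages. The CPI values lay above all others in both reactions. On the other barcodes of the same groups it was at 55.6 and 62.0 for CPI, 45.3 and 50.5 for isotype, 23.2 and 22.2 for CPI + ABT-317 and 20.2 and 17.8 for isotype + ABT-317. Antibody and transcript thus ordered CPI + ABT-317 and isotype differently, since H2-Ab1 was at 3411 and 3215 CPM in CPI + ABT-317 and 1677 and 2029 CPM in isotype. CD274 protein was at 33.4 and 37.5 on CPI and 31.4 and 33.0 on CPI + ABT-317 macrophages, against 24.5 and 24.5 on isotype and 24.3 and 24.0 on isotype + ABT-317. CD11b was at 163 and 211 on CPI and 188 and 207 on isotype macrophages, which overlap. CD48 was at 77.8 and 84.9 on CPI and 52.02 and 49.01 on CPI + ABT-317 macrophages. These shares of antibody UMIs have 2 values a group, and no test was run on them.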

How the data were processed

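The deposited matrices hold counts of UMIs per gene, antibody and hashtag for each droplet barcode, made by the authors from 10x 5′ libraries. Their headers name Cell Ranger 8.0.1 for the MC38 tumors and 7.1.0 for the TDLNs, whereas the submitters' processing notes list Cell Ranger 3.1.0 and GRCm38 (mm10). The authors loaded 60000 cells per reaction. Counts were used as deposited, with barcodes of at least 200 genes and under 10% mitochondrial UMIs, and 0 columns of per-sample values were left out. Gene positions came from GENCODE vM21 and promoters from RefSeq (GRCm38.p6).

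A hashtag was called present where a mixture model of its log counts gave a posterior of at least 0.5, and treatment was taken from the deposited hashtag key for barcodes with exactly 1. CD3-marked barcodes had at least 3 UMIs of CD3 genes and collagen-marked barcodes at least 20 collagen UMIs per 10000, both with 0 of Csf1r. Class levels were compared by ratio, for genes of at least 10 CPM in at least 1 class, with no test. UMIs of macrophages were summed per treatment and reaction (8 sums, at least 20 barcodes each) and fitted in edgeR 4.0.16 (quasi-likelihood test, TMM, filterByExpr, Benjamini-Hochberg adjustment, R 4.3.3), all groups sharing one estimate of spread. DESeq2 1.42.0 was an alternative. C1q genes and Csf1r, being part of the rule, were not tested. On simulated counts for CPI versus isotype, edgeR recovered 87.5% of 200 genes changed 4-fold among 8359 and 46% of 200 changed 2-fold among 8344. The changed genes were drawn from those above a minimum expected count in the smallest sum, so genes of low count are not covered. All genes were simulated with the same spread and with no reaction effect. Python 3.11.15, numpy 2.4.6, scipy 1.17.1, pandas 2.3.3 and matplotlib 3.10.9 were used otherwise.

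The replicate number is the capture reaction that same-numbered sums shared. Over 2916 genes, deviations from group means correlated at 0.571 for isotype with isotype + ABT-317, 0.388 for isotype with CPI + ABT-317, 0.239 for isotype with CPI, 0.172 for both ABT-317 groups, 0.152 for CPI with isotype + ABT-317 and −0.0811 for CPI with CPI + ABT-317. The reaction block was therefore fitted as an alternative.

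The macrophage rule, gene lists and tests were chosen with earlier results of these data known. Named genes were, for each treatment comparison, up to 6 in each direction with the smallest p that moved the same way in both reactions, and members of the lists. A few listed genes are counted with their lists but not reported here. Values of close paralogs, such as Lyz1 and Lyz2, are uncertain where reads match both. Depth, as the median UMIs per barcode and total per sum, is given with the results, and intervals cover counting error only.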

Additional observations from a re-analysis of the deposited data

Results flagged for a closer look

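The effect of ABT-317 on macrophages differed between CPI and isotype tumors for 39 of the named genes, by edgeR's interaction test with Benjamini-Hochberg adjustment over 8452 genes. Over all genes the interaction passed for 379 (4.48%). Genes were named in part for small p-values in the treatment comparisons, this one included, so the 39 are no independent result. Each value is the log2 effect of ABT-317 under CPI minus that under isotype antibody, and each draws on CPI sums of 94 and 79 macrophages.

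Positive values mark a more positive effect of ABT-317 under CPI. The interaction was 3.01 for Gatm, 2.76 for Cd72, 2.66 for Ly6a, 2.42 for Ifi27l2a, 2.36 for Ckb, 2.34 for Cx3cr1, 2.00 for Cd81, 1.82 for AA467197, 1.57 for Havcr2, 1.46 for Pmepa1 and 1.30 for Top2a. Among chemokines it was 2.31 for Ccl12, 1.69 for Cxcl9, 1.25 for Ccl2 and 1.09 for Ccl7. Among interferon-induced and antigen processing genes it was 1.60 for Fcgr4, 1.33 for Psmb8 and 1.10 for Psmb9.

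Negative values mark a more negative effect of ABT-317 under CPI. The interaction was −8.49 for Lyz1, −6.25 for Cbr2, −4.97 for Gdf15, −4.43 for Wfdc17, −4.40 for Ccl6, −2.70 for Ccl9, −1.29 for Ccl8 and −1.86 for Lyz2. Among resident-type and uptake genes it was −3.90 for Folr2, −3.06 for Mrc1, −2.56 for Selenop and −2.42 for Gas6. Lipid and lysosomal genes gave −3.39 for Gpnmb, −2.76 for Fabp5, −2.41 for Ctsd, −2.11 for Abca1 and −0.998 for Apoe. The rest were Ddhd1 at −3.78, F13a1 at −3.68, Thbs1 at −2.79 and C3 at −2.19.

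The interactions of Cx3cr1, Cd81, AA467197, Pmepa1, Ccl2, Ccl7, Lyz2 and Abca1 were not followed with sums left out or in other settings. Nor were those of C3, Ctsd, Gas6, Ccl9, Gpnmb, F13a1 and Ddhd1. Of the genes that were followed, some beside Fcgr4, Psmb8 and Psmb9 did not pass when a sum was left out. Apoe did not pass without isotype reaction 1 (adjusted p = 0.0674), CPI reaction 2 (0.0847) or CPI + ABT-317 reaction 1 (0.05001), Ccl8 did not without CPI reaction 2 (adjusted p = 0.121), CPI + ABT-317 reaction 2 (0.0555) or isotype + ABT-317 reaction 2 (0.142), and Top2a did not without isotype reaction 1 (adjusted p = 0.0541), CPI reaction 1 (0.0556), CPI reaction 2 (0.237), CPI + ABT-317 reaction 1 (0.0528) or isotype + ABT-317 reaction 1 (0.0610). Havcr2 did not pass without isotype reaction 2 (adjusted p = 0.0627), CPI reaction 1 (0.235), CPI reaction 2 (0.167), CPI + ABT-317 reaction 1 (0.0982), isotype + ABT-317 reaction 1 (0.0787) or isotype + ABT-317 reaction 2 (0.0653), nor with DESeq2 (0.0578). Lyz1 was −9.24 (adjusted p = 0.417) without macrophages that carried UMIs of other lineages.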

How the results depend on the processing

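The CPI sums, of 94 and 79 barcodes, limited depth most. Genes called, in the order CPI versus isotype, CPI + ABT-317 versus CPI, isotype + ABT-317 versus isotype and interaction, numbered 1268, 839, 5 and 379. Leaving out single sums gave 589 to 1448, 330 to 865, 2 to 9 and 170 to 529. Without CPI reaction 1 the counts were 640, 330, 2 and 170, and without CPI reaction 2 they were 589, 371, 2 and 171. CPI + ABT-317 versus CPI gave 466 without CPI + ABT-317 reaction 2. Isotype + ABT-317 versus isotype gave 3 without isotype + ABT-317 reaction 2, and 9 and 8 without CPI + ABT-317 reactions 1 and 2. The interaction gave 244 without isotype reaction 2, 240 without CPI + ABT-317 reaction 2 and 202 without isotype + ABT-317 reaction 1. With the reaction as a replicate block they were 1581, 1053, 12 and 673, and beside these counts the block ended the call of Ifit2 between CPI + ABT-317 and CPI, added Irf7 in isotype + ABT-317 and changed no other named call. Other settings gave 959, 524, 0 and 124 with C1q at 10 per 10000, 1193, 806, 9 and 441 with 40, 341, 249, 0 and 78 with the leading hashtag, and 727, 456, 1 and 169 without macrophages carrying UMIs of other lineages. Where edgeR called 0, unadjusted p was under 0.05 for 208 genes with C1q at 10 and 229 with the leading hashtag. Isotype + ABT-317 versus isotype gave 19 with no filter on low counts and 2 under 2500 genes. A setting chosen after seeing the data, at least 2000 UMIs per macrophage, gave 1157, 742, 4 and 369.

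Of 123 values of named genes, 63 kept their side of the threshold in every setting that gave them an adjusted p. Those of the 63 that passed in the main fit also kept their direction. For the others a change of sign was not counted. The leading hashtag ended 51 calls, leaving out single sums 42, C1q at 10 per 10000 ended 28, dropping macrophages with UMIs of other lineages 26, and DESeq2 ended 9. Cxcl9 in CPI versus isotype turned to −1.09 without macrophages that carried UMIs of other lineages. Without a filter on low counts the median log2 difference of all genes moved to −0.90, 0, −0.20 and 0.90, over more genes tested.

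Shares of macrophages moved with depth limits and with the hashtag rule. The overall 21.8% became 13.4% with 2 Csf1r UMIs and 36.1% under 2500 genes, and was 18.3% and 25.4% in single reactions. For isotype, CPI, CPI + ABT-317 and isotype + ABT-317 it became 19.5%, 2.24%, 6.65% and 5.26% with 2 Csf1r UMIs, and 53.7%, 5.31%, 42.9% and 41.3% under 2500 genes. The leading hashtag gave 38.6% in isotype, 13.8% in CPI, 13.01% in CPI + ABT-317 and 9.75% in isotype + ABT-317, so the order of CPI and CPI + ABT-317 turned. C1q at 10 and 40 per 10000 gave 6.20% and 3.67% in CPI, and 8.84% and 7.89% in isotype + ABT-317. Antibodies at least 2-fold higher rose from 3 to 9 when isotype controls were subtracted. The cause of these shifts was not tested.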
